A study of Mus musculus with 64 samples.

Results

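Interferon response genes were followed through 4 populations of sorted blood progenitors from fetal liver of mice that carried 0, 1 or 2 disrupted copies of Smarcd2, which encodes a subunit of the SWI/SNF (BAF) chromatin remodelling complexes. The set held 39 genes, given by symbol and taken from the genes that type I interferon induces. They were matched by Ensembl identifier, with symbols from GENCODE release M21 (GRCm38). All 39 were among the 38924 genes in the table of LSK cells (lineage-negative, Sca-1+, c-Kit+ cells, which hold stem and multipotent progenitors) and among the 27892 in the table of granulocyte-monocyte progenitors (GMP). The table of common myeloid progenitors (CMP) had 31 of them among 15790 genes, and that of megakaryocyte-erythroid progenitors (MEP) 28 among 13050. Genes outside a table were not analysed in that population. These were Ifi44, Ifit1, Ifit3, Ifit3b, Isg15, Mx2, Rsad2 and Zbp1 in CMP, and Ifi27l2a, Ifi44, Isg15, Mx1, Mx2, Oas2, Oas3, Oasl1, Rsad2, Xaf1 and Zbp1 in MEP.

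Each group is named by its Smarcd2 genotype, wild type (+/+, WT), heterozygous (+/-, HET) or knockout (-/-, KO), and all animals were C57BL/6. LSK cells came from embryos of 13 or 14 days post coitum and gave 5 WT libraries (4 female, 1 male), 9 HET libraries (5 female, 4 male) and 9 KO libraries (5 female, 4 male). CMP gave 3 WT, 7 HET and 4 KO libraries, GMP 3, 7 and 3, and MEP 3, 7 and 4, all of undetermined sex. They came from embryos of 13 or 14 days as well, apart from 1 CMP HET library given as 14.5 days. LSK cells were sorted as CD45.2+, Sca-1+, c-Kit+ and lineage-negative, with Mac given as positive to low. The other 3 populations were sorted as CD45+, lineage-negative and Sca-1-negative, and were separated from each other by CD34 and CD16/32. The labels give the genotype of the animal and do not say how the allele was made. They also do not say that each library came from a different fetus, so the p-values below measure the spread between libraries. The first part of each library name is a title series, 19, 20, 21, 22 or 24 in LSK and M32, M33 or M34 elsewhere. Series M34 held KO libraries only.

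Type I interferons bind a receptor of the chains IFNAR1 and IFNAR2, whose kinases JAK1 and TYK2 activate STAT2. STAT2 and IRF9 are parts of the complex ISGF3, which binds interferon-stimulated response elements (ISRE) near its targets. The targets encode the factors of the pathway itself (Stat2, Irf9, Irf7), a ubiquitin-like modifier with its enzymes (Isg15, Herc6, Usp18), sensors of foreign RNA and DNA, and proteins that block viral replication. Many of them are also transcribed at a low level without infection, through tonic interferon signalling, and stem cells are known for a high basal level of part of this programme.

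To show where such elements lie, windows of 300 bases around gene starts (250 before and 50 after, from RefSeq, GRCm38.p6) were searched for the core of the element. The core was taken as GAAA, any 2 bases and GAAA, on either strand, so that its complement TTTC, any 2 bases and TTTC counted too. A window was at hand for 29 of the 39 genes, and 15 of these (51.7%) held at least 1 core, against 1079 of all 27025 genes with a window (3.99%). The 6 windows below belong to genes on which the results turn, written 5′ to 3′ on the strand of the gene, with the core in capitals. Isg15 has 3 overlapping cores that start 78, 72 and 66 bases before the gene start, Ifit1 has 2 cores at 104 and 85 bases before it, and Oas1a has 2 overlapping cores at 20 and 14. Stat2 and Rsad2 have 1 each, 222 and 120 bases before the start, and the window of Irf7 holds none.
Isg15 (chr4:156200769-156201068, minus strand): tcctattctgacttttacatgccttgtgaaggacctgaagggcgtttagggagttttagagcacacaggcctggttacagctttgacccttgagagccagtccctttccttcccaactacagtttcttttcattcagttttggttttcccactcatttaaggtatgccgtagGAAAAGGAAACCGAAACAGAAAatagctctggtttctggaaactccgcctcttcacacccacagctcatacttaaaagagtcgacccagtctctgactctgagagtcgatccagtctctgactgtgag
Ifit1 (chr19:34640639-34640938, plus strand): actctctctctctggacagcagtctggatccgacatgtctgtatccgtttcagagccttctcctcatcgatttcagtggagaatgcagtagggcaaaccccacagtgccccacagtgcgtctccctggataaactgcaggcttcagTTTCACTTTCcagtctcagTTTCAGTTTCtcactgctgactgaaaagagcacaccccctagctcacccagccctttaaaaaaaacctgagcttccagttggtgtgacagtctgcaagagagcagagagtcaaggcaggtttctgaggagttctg
Oas1a (chr5:120907476-120907775, minus strand): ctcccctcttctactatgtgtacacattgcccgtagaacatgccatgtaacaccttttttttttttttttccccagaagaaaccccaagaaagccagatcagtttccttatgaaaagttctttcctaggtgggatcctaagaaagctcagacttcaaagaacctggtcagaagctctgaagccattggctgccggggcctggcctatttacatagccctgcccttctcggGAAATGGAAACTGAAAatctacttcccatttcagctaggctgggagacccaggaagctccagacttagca
Stat2 (chr10:128270248-128270547, plus strand): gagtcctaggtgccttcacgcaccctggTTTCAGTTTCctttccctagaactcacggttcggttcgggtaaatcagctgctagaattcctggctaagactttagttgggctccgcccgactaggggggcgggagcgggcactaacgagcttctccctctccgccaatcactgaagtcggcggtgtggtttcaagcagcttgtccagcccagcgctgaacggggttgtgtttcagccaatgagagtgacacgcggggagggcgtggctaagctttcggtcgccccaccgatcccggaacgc
Rsad2 (chr12:26456403-26456702, minus strand): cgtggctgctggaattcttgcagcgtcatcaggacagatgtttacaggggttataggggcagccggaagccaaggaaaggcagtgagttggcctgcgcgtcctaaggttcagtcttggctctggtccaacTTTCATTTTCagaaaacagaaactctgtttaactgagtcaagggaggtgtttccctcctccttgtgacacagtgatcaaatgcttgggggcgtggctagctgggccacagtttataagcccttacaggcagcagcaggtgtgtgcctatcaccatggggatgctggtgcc
Irf7 (chr7:141266375-141266674, minus strand): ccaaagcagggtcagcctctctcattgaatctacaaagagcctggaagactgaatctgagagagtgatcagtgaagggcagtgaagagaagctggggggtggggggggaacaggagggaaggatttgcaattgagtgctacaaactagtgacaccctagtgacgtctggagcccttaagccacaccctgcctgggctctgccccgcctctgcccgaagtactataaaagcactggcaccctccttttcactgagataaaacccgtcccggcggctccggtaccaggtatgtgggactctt
A match describes the letters and is not a measured binding site, and a window without one says only that these letters are not in it.

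The libraries were made with a Smart-seq2 protocol, which marks neither the strand nor the single molecule, and held between 1006090 and 24069833 reads on genes, with at least 4327582 in each LSK library and at most 8092644 in those of the other 3 populations. Values below are counts-per-million values (CPM), scaled by TMM, a correction for library composition. Smarcd2 itself lay at 49.4 to 132 CPM in the WT libraries of the 4 populations and at 0 to 1.94 CPM in the KO libraries, while the HET libraries spread from 8.77 to 79.4. The LSK HET library HT20.5 had 67.4 CPM, within the LSK WT range of 49.4 to 70.4, whereas the other 8 LSK HET libraries had 21.9 to 40.45 CPM. Without it the counts of interferon genes called in LSK, described below, were 34 in KO against WT, 0 in HET against WT and 27 in KO against HET. Libraries that stood apart from their group were the HET libraries numbered 8 of CMP, GMP and MEP and the KO library numbered 15 of MEP. Their TMM factors were the lowest of their populations, at 0.584, 0.304, 0.759 and 0.572 in that order. CPM is divided by this factor, so the scaling raised the CPM of these libraries. The HET library 8 of GMP had reads on 27233 of the 27892 genes in the GMP table. The GMP WT libraries had reads on 14184 to 19509 genes and the GMP KO libraries on 15485 to 18119. Defining markers of the sorted cells were present. In WT, 9 stem and multipotent markers summed to 2603 to 3083 CPM in LSK, 8 granulocyte-monocyte markers to 4722 to 6068 CPM in CMP and 11917 to 33847 CPM in GMP, and 8 megakaryocyte-erythroid markers to 613 to 983 CPM in MEP. In GMP, the KO libraries had 2.52% to 3.06% of their reads on added spike-in RNA, against 0.149% to 0.233% in WT. In bulk samples such as these, fewer cells of a type and less RNA per cell cannot be told apart.

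In LSK cells the interferon response genes were higher in KO than in WT nearly throughout. All 39 passed the filter on low counts, 34 of them were higher at an adjusted p under 0.05 (edgeR's quasi-likelihood test, Benjamini-Hochberg over 13878 genes) and none was lower. Of all genes tested, 9.53% were called higher and 9.28% lower. The median log2 fold change of the 39 genes was 1.25, with a range of 0.38 to 2.48, while the median over all genes was 0.01. The 5 genes that missed the threshold, Zbp1, Bst2, Ifi44, Ifi27l2a and Ifi203, also had positive fold changes. For 11 of the 39 genes every KO library lay above every WT library, which held for 2.77% of all genes.

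Of the transcription factors, Stat2 (chr10:128270559-128292849), a subunit of ISGF3, had 25.21, 29.28, 22.53, 24.55 and 22.999 CPM in the 5 WT libraries. The HET libraries ran from 22.7 to 43.3 CPM with a median of 28.5, and the KO libraries from 43.4 to 60.03 CPM with a median of 53.4. The KO libraries were above all others, and the highest HET library came within 1 CPM of the lowest KO library. Stat2 was 1.09 higher on the log2 scale in KO than in WT (SE 0.14, adjusted p = 1.32e-05), the smallest p of the 39 genes. Irf9 (chr14:55603571-55610030), the DNA-binding part of ISGF3, had 76.4, 64.8, 42.9, 47.5 and 66.1 CPM in WT, 54.5 to 106.1 CPM in HET (median 73.8) and 77.8 to 148.8 CPM in KO (median 116.7). Its KO libraries again did not overlap with WT, although the lowest KO library was close to the highest WT library, and the log2 difference was 0.99 (SE 0.16, adjusted p = 0.000223). Irf7 (chr7:141262706-141266481), the factor that drives the later interferon alpha genes, was at 19.05, 7.84, 5.23, 7.10 and 14.6 CPM in WT. It reached 7.24 to 27.3 CPM in HET (median 15.1) and 15.4 to 60.6 CPM in KO (median 40.1). For Irf7 the groups overlapped, since the library WT19.2 was above the lowest KO library. Irf7 was 1.79 higher in KO (log2, SE 0.37, adjusted p = 0.00224).

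**Figure D1:**
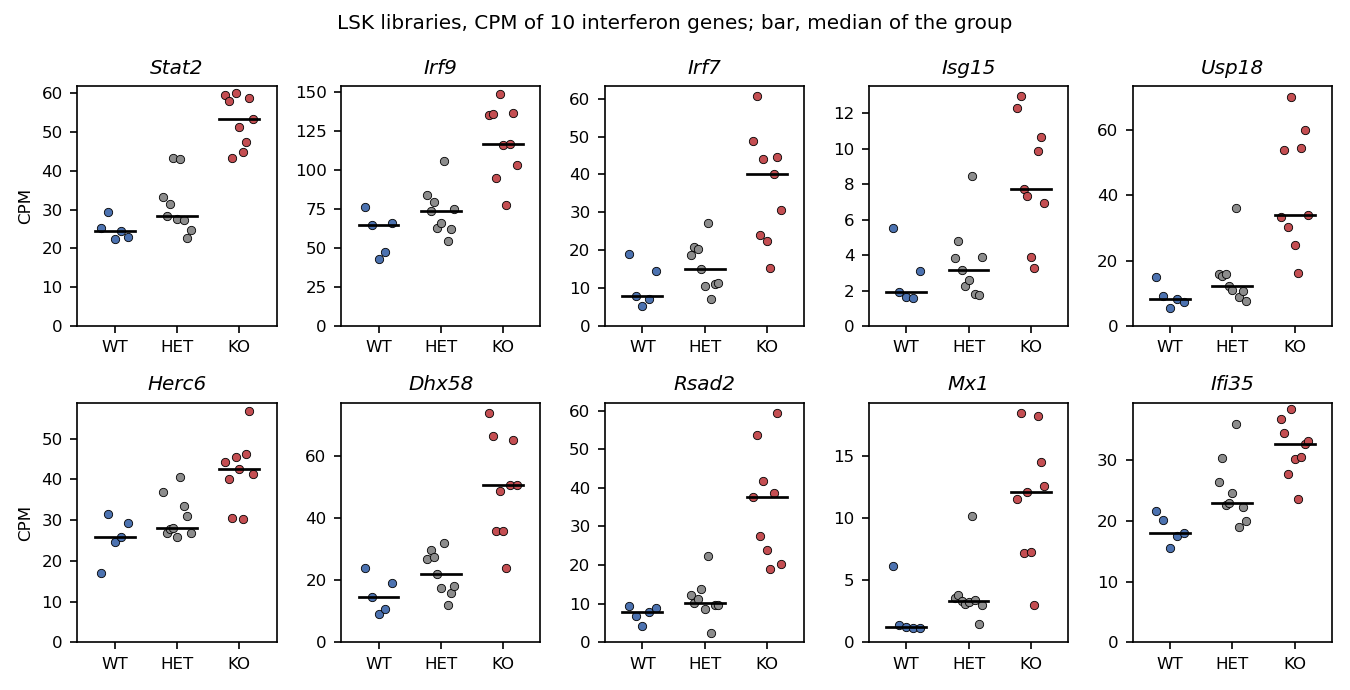
CPM (linear axis from 0) in each LSK library (points) for 10 interferon response genes, by Smarcd2 genotype, with bars at the group medians. For Stat2 the 9 KO libraries (43.4 to 60.03 CPM) lie above the 5 WT libraries, while for Isg15 and Irf7 the lowest KO libraries lie within the WT range.

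The system of the modifier ISG15 was higher at each of its 3 genes in the set. Usp18 (chr6:121245906-121270917), the protease that removes ISG15 and also dampens the receptor, had 14.9, 9.24, 5.63, 8.37 and 7.19 CPM in WT. Its HET libraries lay between 7.76 and 36.1 CPM (median 12.4) and its KO libraries between 16.3 and 70.2 CPM (median 33.9). All KO libraries were above all WT libraries, and 1 HET library, HT21.4, was above the KO median. The log2 difference of Usp18 between KO and WT was 2.20 (SE 0.40, adjusted p = 0.000764). Isg15 (chr4:156199424-156200818), the modifier itself, had 5.56, 1.92, 1.61, 1.56 and 3.11 CPM in WT, 1.74 to 8.48 CPM in HET (median 3.18) and 3.25 to 13.0 CPM in KO (median 7.75). It was low in all groups, and the library WT19.2 overlapped with the KO range. Isg15 was 1.63 higher in KO (log2, SE 0.40, adjusted p = 0.0062). Herc6, the mouse ligase that attaches ISG15 to proteins, had 17.1, 31.5, 24.54, 25.8 and 29.2 CPM in WT and 30.3 to 56.8 CPM in KO (median 42.6). Its change was smaller, at 0.71 (log2, SE 0.15, adjusted p = 0.00171), and the library WT21.1 lay above the lowest KO library.

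The cytoplasmic RNA sensors rose together, and the DNA sensor did not pass the test. Dhx58 (LGP2), which modulates the other 2 RNA helicases, had 23.8, 14.5, 9.25, 10.6 and 19.17 CPM in WT, 11.9 to 32.0 CPM in HET (median 21.8) and 24.04 to 73.8 CPM in KO (median 50.5). The lowest KO library of Dhx58 was just above the highest WT library, and the difference was 1.71 (log2, SE 0.29, adjusted p = 0.000384). Ddx58 (RIG-I) rose by 1.05 (log2) from a WT range of 34.8 to 57.7 CPM to a KO range of 60.3 to 127 CPM, with no overlap. Ifih1 (MDA5) rose by 0.64 (log2) and overlapped, with 29.8 to 47.9 CPM in WT and 40.6 to 80.1 CPM in KO. Zbp1, a sensor of Z-form nucleic acid, was close to absent, with 0 to 0.794 CPM in WT and 0 to 2.61 CPM in KO. Its difference of 1.25 (log2, SE 0.60) had an adjusted p of 0.147.

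All 6 oligoadenylate synthetase genes were higher in KO. Enzymes of this family make the messenger that activates RNase L, although not every member has this activity. The log2 differences of the 6 genes ran from 1.03 (Oas1g) to 1.65 (Oasl2). Oas1a went from 12.7 to 34.5 CPM in WT (median 29.3) to 40.1 to 84.7 CPM in KO (median 53.6), without overlap, for a log2 difference of 1.32 (SE 0.29, adjusted p = 0.00343). Oasl2, the most highly counted of the 6 in KO, went from a WT median of 37.1 CPM to a KO median of 110 CPM. Oas1a and Oas1g are near-identical neighbours on chromosome 5, so the split of reads between them is uncertain. The 4 IFIT genes, whose products bind viral RNA or the translation machinery, were also all called. Ifit1 ran from 2.82 to 30.4 CPM in WT (median 10.5) and from 11.8 to 99.8 CPM in KO (median 56.0), so that the groups overlapped despite a log2 difference of 1.98 (SE 0.52, adjusted p = 0.0111). Ifit2 was the steadiest of the family, with a log2 difference of 0.53 from a WT median of 32.8 CPM. Ifit3 and Ifit3b, copies that share reads, differed by 1.96 and 2.36 (log2) at a few CPM, and their counts are uncertain for that reason.

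Among other antiviral effectors, Rsad2, Mx1 and Mx2 had the largest folds. Rsad2 (chr12:26442746-26456452), which encodes viperin, an enzyme that makes a chain-terminating nucleotide, had 9.53, 6.80, 4.22, 7.95 and 8.86 CPM in WT. It had 2.41 to 22.37 CPM in HET (median 10.1) and 18.99 to 59.2 CPM in KO (median 37.7), so KO and WT were clearly apart. The log2 difference of Rsad2 was 2.26 (SE 0.37, adjusted p = 0.000284). Its neighbour Cmpk2 (chr12:26469204-26479837), which supplies the nucleotide that viperin uses, rose by 0.86 (log2, SE 0.28, adjusted p = 0.0346), with overlapping groups. Mx1 (chr16:97447035-97462907) had 6.15, 1.39, 1.21, 1.14 and 1.20 CPM in WT, 1.51 to 10.2 CPM in HET (median 3.31) and 3.00 to 18.5 CPM in KO (median 12.1). The library WT19.2 was the only WT library inside the KO range. Mx1 differed by 2.40 (log2, SE 0.50, adjusted p = 0.00191) and Mx2 by 2.48 (log2, SE 0.53, adjusted p = 0.00254), the largest fold of the 39 genes. Both Mx genes belong to the family of dynamin-like GTPases, and C57BL/6 mice are known to carry a defective Mx1. The annotation lists Mx2 as a polymorphic pseudogene. At the other end, Bst2 (tetherin), which holds budding virus at the membrane, was at 27.8 to 43.7 CPM in WT and 33.2 to 61.6 CPM in KO, a log2 difference of 0.38 (SE 0.16) with an adjusted p of 0.09. Eif2ak2 (PKR), the kinase that stops translation in infected cells, rose by 0.50 (log2, SE 0.15, adjusted p = 0.0218). Isg20, an exonuclease, Samd9l and Trim30a rose by 1.29, 1.15 and 0.96 (log2), and of these Trim30a belongs to a gene family with close copies.

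Parp9 and Dtx3l encode partners in 1 complex of ADP-ribosylation and ubiquitin ligase activity, and Parp14 a related enzyme. The 3 genes rose by 0.61, 0.50 and 0.60 (log2). Dtx3l was at 89.8 to 113 CPM in WT and at 116 to 191 CPM in KO, with no overlap. Parp9 (chr16:35938470-35972605) and Dtx3l (chr16:35926511-35939151) overlap at their starts on opposite strands, so that reads there could not be told apart. Of the remaining genes, Ifi35 had 21.64, 20.2, 15.5, 17.6 and 17.97 CPM in WT, 19.099 to 36.0 CPM in HET (median 23.02) and 23.6 to 38.4 CPM in KO (median 32.7). The KO libraries of Ifi35 were above all WT libraries, at a log2 difference of 0.78 (SE 0.14, adjusted p = 0.000415). Xaf1, a promoter of cell death, rose by 1.41 (log2) without overlap, from 7.04 to 23.6 CPM in WT to 27.5 to 59.0 CPM in KO. Rtp4, a Golgi chaperone that interferon induces, rose by 1.51 (log2), and Epsti1 by 0.58 (log2). Ifi203, of the Ifi200 family of close copies, was at 149 to 321 CPM in WT and 161 to 378 CPM in KO, with an adjusted p of 0.0526 for a log2 difference of 0.58.

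**Figure D2:**
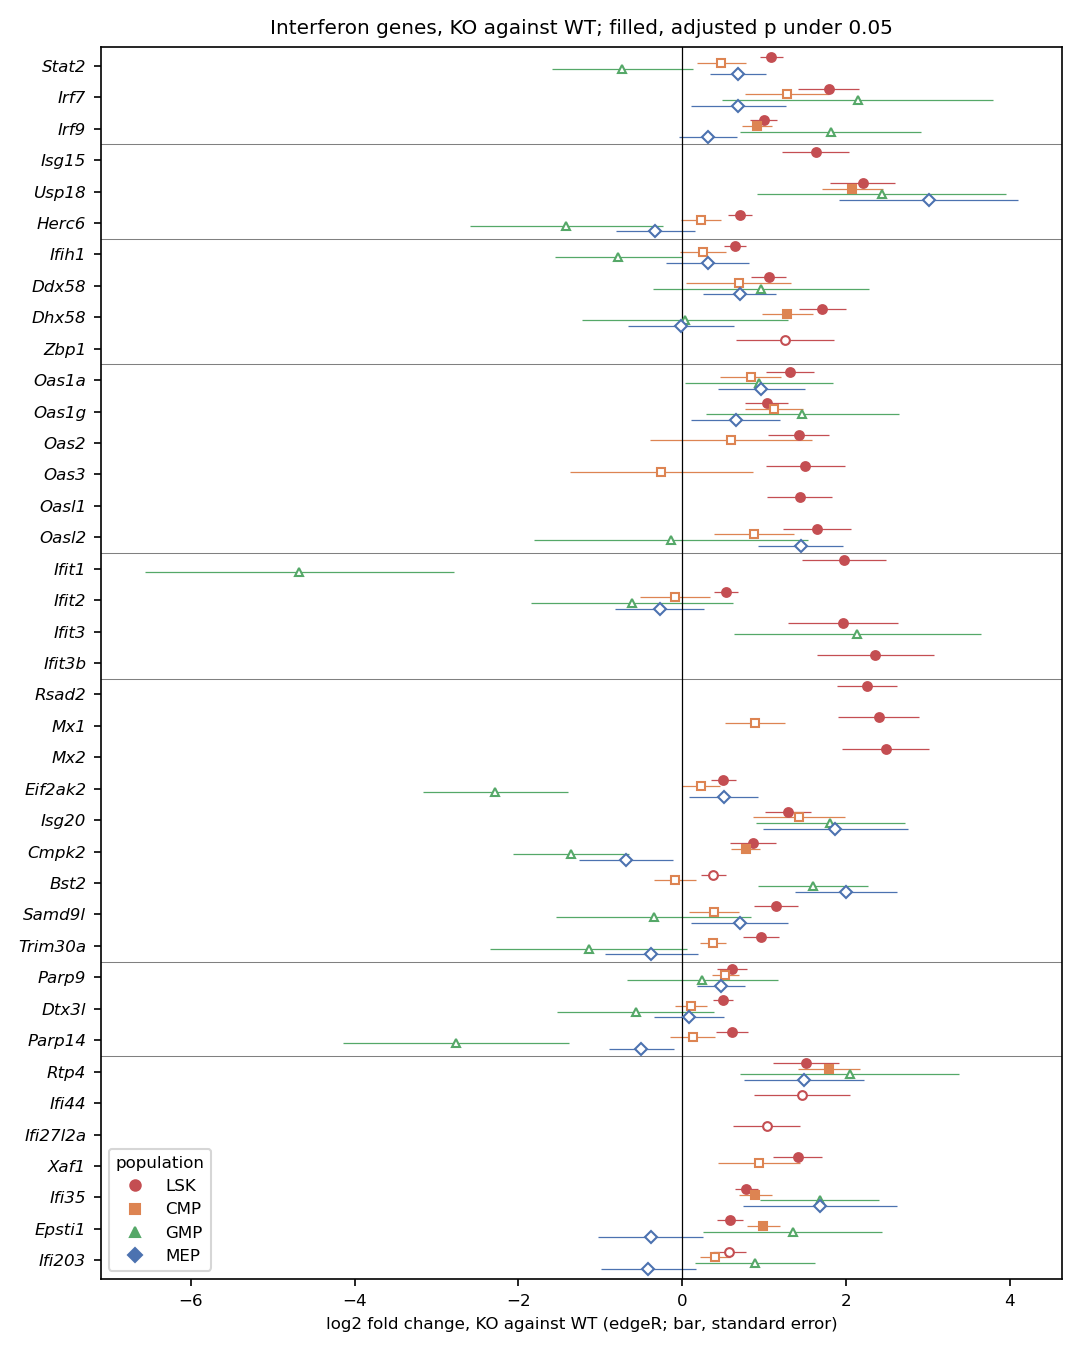
Log2 fold change between KO and WT with a standard error derived from the F statistic (bars) for the interferon response genes in LSK, CMP, GMP and MEP. Filled points have an adjusted p under 0.05, which 34 of 39 genes reach in LSK, 7 of 29 in CMP and none in GMP or MEP.

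The ISRE core in the window set no clear group apart in LSK, and the difference was not tested. Of the 15 genes with a core, 13 were called, with a median log2 difference of 1.09. Of the 14 with a window but no core, 13 were called, with a median of 1.07, and of the 10 with no window at hand, 8 were called, with a median of 1.47.

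The heterozygous LSK libraries lay nearer to WT. None of the 39 genes was called between HET and WT by edgeR's test, by DESeq2 or by limma, and edgeR called 0.00721% of all genes. At an unadjusted p under 0.05 there were 2 of 39, Ifi35 at 0.43 and Stat2 at 0.32 on the log2 scale, while 11% of all genes were at that level. The fold changes were positive for 37 of 39 genes, with a median of 0.36, against 53.3% of all genes and a median of 0.02. The 2 exceptions were Ifi27l2a at -0.34 and Epsti1 at -0.0045. Against HET, 32 of the 39 genes were higher in KO and none was lower, with 5.93% of all genes called higher, and the median of the 39 was 0.86. Stat2 was 0.76 higher (log2, adjusted p = 0.000104), and all 9 of its KO libraries were above all 9 HET libraries, which held for no other gene of the set. Rsad2 was 1.68 higher (log2, adjusted p = 0.000556), and the RNA sensors Ifih1, Dhx58 and Ddx58 were 0.62, 1.17 and 0.90 higher (log2). The comparisons of KO with WT and with HET share the KO libraries, and those of KO and of HET with WT share the WT libraries, so they are not independent of each other.

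A score, the mean over the 39 genes of each library's log2 CPM minus the WT mean, put the LSK libraries in order. The median was 0.03 in WT (-0.61 to 0.55), 0.25 in HET (-0.43 to 1.10) and 1.40 in KO (0.53 to 1.77). The highest WT library thus touched the lowest KO library across series, but within series they did not meet. In series 19 the WT library scored 0.55 and the KO libraries 1.48 to 1.75. In series 21 the WT libraries scored -0.61 to 0.03 and the KO libraries 0.75 to 1.40. In series 22 the WT library was at -0.26 and the KO libraries at 0.53 to 1.77, and in series 24 they were at 0.30 and 1.15. Series 20 held no WT library, and there 1 KO library scored 0.90 and the HET libraries 0.13 to 0.25. In every series that held both, the KO libraries scored higher than the WT libraries. The HET libraries of series 21 spanned -0.43 to 1.10, and the upper end was library HT21.4, the highest HET library for Irf9, Rsad2, Dhx58, Usp18, Mx1, Irf7 and Isg15.

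**Figure D3:**
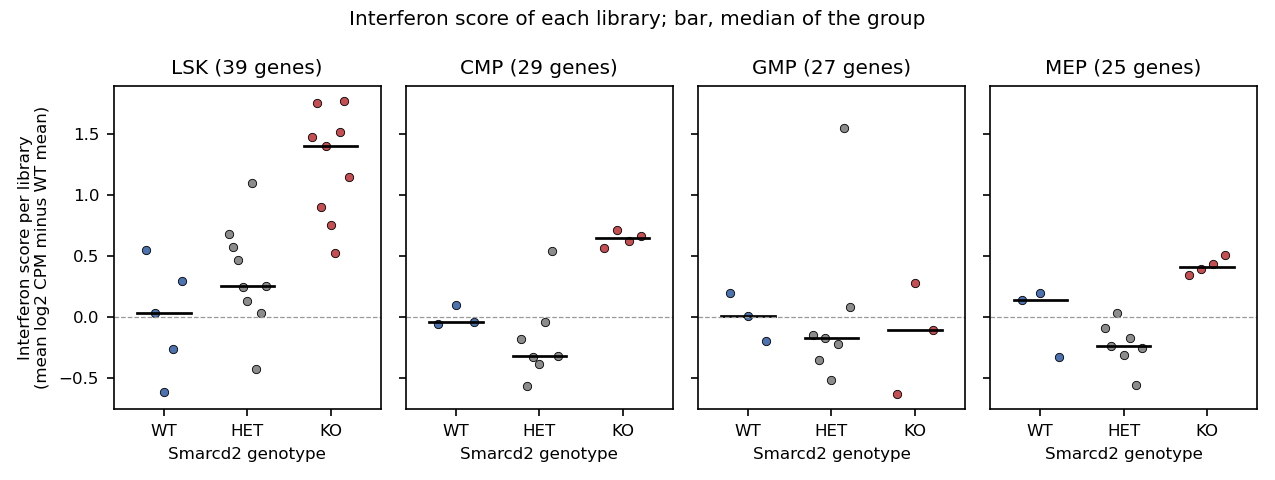
Interferon score of each library (points), the mean log2 CPM over the tested interferon response genes minus the WT mean of the population, by genotype and population, with bars at the medians. The KO libraries are above all WT libraries in CMP (0.56 to 0.71) and MEP (0.35 to 0.51; with the median over genes in place of the mean, 1 MEP KO library lies within the WT range), reach down to 0.53 in LSK, where the highest WT library is at 0.55, and overlap with WT in GMP.

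The other genes of the pathway that were called in LSK were higher in KO with 2 exceptions, Pnpt1 and Rnaseh2b. Of all genes tested in LSK, 9.53% were called higher and 9.28% lower in KO than in WT. Of 42 other interferon-induced genes, 24 were higher and 1 was lower, with a median log2 difference of 0.59. Uba7, the enzyme that activates ISG15, rose by 0.89 (log2, adjusted p = 1.87e-05), Trim34a by 0.96 and Gbp9, a guanylate-binding protein, by 1.91, and the exception was Pnpt1 at -0.26. Of the IRF factors outside the set and their cofactor, Irf4 was higher by 1.32 (log2, adjusted p = 0.00232), Irf2bp2 by 0.52, Irf2 by 0.45 and Irf1 by 0.42. Of 8 genes of receptors and kinases 2 were higher, Ifngr1 at 0.43 and Ifnar2 at 0.26 (log2). Ifnar1 was not called, at 0.25 with an adjusted p of 0.0703. Of 13 genes of nucleic acid sensing 1 was higher, Zc3hav1 at 0.27, which is near the share over all genes. Of 15 genes that limit interferon signalling or self nucleic acid, 3 were higher, among them Adar at 0.80 (log2, adjusted p = 0.000257), and 1 was lower, Rnaseh2b at -0.44. Of 13 genes of antigen processing and MHC class I, 5 were higher, among them the activator Nlrc5 at 1.82 and the transporter Tap1 at 0.76 (log2). Sca-1, encoded by Ly6a, is both an antigen of the LSK sort and induced by interferon, and Ly6a was not called, at 0.46 with an adjusted p of 0.287.

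The interferons themselves were hardly read. Of 21 genes for type I and III interferons and interferon gamma, 17 were in the LSK table and 5 of these had any read, 52 in all 23 libraries together, 31 of them on Ifnz. In GMP 14 were in the table and they had 57 reads, in CMP 1 (Ifnl3, with 7 reads in 1 library), and in MEP none was in the table. Levels of these genes were therefore not detectable at this depth.

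Markers of other cells moved with genotype in some populations. The summed level of 9 dendritic cell markers, with Bst2 left out because it belongs to the interferon set, was 78.9 to 125 CPM in LSK WT, 88.1 to 200 CPM in HET and 90.6 to 274 CPM in KO. Of these, Itgax, H2-Ab1 and Siglech were called higher in KO, by 1.60, 1.36 and 1.37 (log2). Of 9 stem and multipotent genes tested in LSK, 3 were higher, Kit, Flt3 and Meis1, by 0.33, 0.54 and 0.28 (log2). Kit is also on the megakaryocyte-erythroid and granulocyte-monocyte lists. Gfi1b of the 7 megakaryocyte-erythroid genes was higher by 0.76, and Pecam1 of the 6 endothelial genes by 0.71. Lower were Ctsg of the 7 granulocyte-monocyte genes, at -2.72, and Folr2 of the 10 macrophage genes, at -3.56. Of all genes tested in LSK, 9.53% were called higher and 9.28% lower. Macrophage markers summed to 134 to 955 CPM in LSK WT and 36.6 to 1483 CPM in KO. In CMP the 5 dendritic markers in the table summed to 5.96 to 8.25 CPM in WT and 16.4 to 23.7 CPM in KO, and hepatocyte markers to 294 to 751 CPM and 34.8 to 123 CPM. Stem and multipotent markers in CMP summed to 1111 to 1276 CPM in WT and 1415 to 1553 CPM in KO, without overlap. Called in CMP were Flt3 and Meis1 (2 of 6 stem markers) at 1.28 and 0.60 higher in KO (log2), Gfi1b (1 of 8 megakaryocyte-erythroid markers) at 1.39 higher, Elane and Ctsg (2 of 8 granulocyte-monocyte markers) at -3.49 and -2.68, and Nkg7, the 1 T and NK cell marker tested, at -1.15. Of all genes tested in CMP, 1.02% were called higher and 0.823% lower. No marker of any list was called between KO and WT in GMP or MEP. In GMP the dendritic sum was 4.04 to 15.8 CPM in WT and 6.92 to 43.6 CPM in KO. Their part in the interferon results was not tested.

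In CMP, 29 of the 31 genes in the table passed the filter on low counts, which Oasl1 and Ifi27l2a did not, and 7 of these were higher in KO than in WT, with none lower (edgeR, 11658 genes). Of all genes, 1.02% were called higher and 0.823% lower. Fold changes were positive for 26 of 29, with a median of 0.69 beside -0.01 over all genes. For 15 of 29 every KO library was above every WT library, which held for 8.97% of all genes. The 7 genes were Usp18, Epsti1, Irf9, Rtp4, Cmpk2, Ifi35 and Dhx58. All 7 were also called in LSK, as were 27 of the 29 genes tested in CMP. These 7 were 20.6% of the genes called in LSK, some of which were not tested in CMP. Usp18 had 3.76, 4.68 and 3.44 CPM in WT, 1.38 to 5.61 CPM in HET (median 2.79) and 9.999, 12.3, 21.46 and 23.3 CPM in KO. Its KO libraries were well above all others, and Usp18 was 2.08 higher in KO than in WT (log2, SE 0.37, adjusted p = 0.00441).

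The other genes named in CMP had smaller differences. Epsti1 had 15.4, 13.2 and 13.1 CPM in WT and 28.5, 33.03, 22.97 and 26.3 CPM in KO, and was 0.99 higher (log2, SE 0.20, adjusted p = 0.0121). Irf9 had 24.7, 25.6 and 18.6 CPM in WT and 40.3, 46.0, 35.4 and 51.8 CPM in KO, and was 0.91 higher (log2, SE 0.19, adjusted p = 0.0125). For both genes no KO library overlapped with a WT library. Rtp4 had 8.16, 4.95 and 2.75 CPM in WT and 16.7, 21.199, 16.2 and 23.3 CPM in KO (1.79 higher on the log2 scale, SE 0.38, adjusted p = 0.0162). Cmpk2 had 17.6, 16.2 and 16.5 CPM in WT and 23.3, 27.9, 34.3 and 29.96 CPM in KO (0.77 higher on the log2 scale, SE 0.17, adjusted p = 0.0247). These too were apart in every library. Stat2, the first gene in LSK, was at 10.4, 16.0 and 10.7 CPM in WT and 20.6, 17.2, 16.6 and 14.2 CPM in KO, with 1 KO library below the highest WT library and an adjusted p of 0.558 for a log2 difference of 0.48. Irf7 had 2.72, 3.30 and 2.75 CPM in WT and 5.76, 4.69, 5.27 and 12.3 CPM in KO, all above WT, with an adjusted p of 0.284 for 1.27 (log2). Without WT library 12 only 1 of the 7 genes, Usp18, was still called, and without any 1 of WT 2, WT 5, KO 11 and KO 15 there were 3. With the title series as a term only Epsti1 was called, at 1.09 (log2, adjusted p = 0.0254).

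Against HET, 13 of the 29 CMP genes were higher in KO and none was lower, with 1.38% of all genes called higher and a median of 0.78 for the 29. The smallest p-values were those of Usp18 at 2.599 (log2, adjusted p = 7.1e-05), Rtp4 at 2.15 (0.000533), Cmpk2 at 0.94 (0.00102) and Irf9 at 0.99 (0.00104). Irf7 passed here, at 1.93 (adjusted p = 0.018). None was called between HET and WT by edgeR, DESeq2 or limma, 1 was at an unadjusted p under 0.05 (2.54% of all genes), and the median of the 29 was -0.14 (edgeR called 0% of all genes). The CMP score was -0.06 to 0.10 in WT, -0.57 to 0.54 in HET and 0.56 to 0.71 in KO. Within series M32 the KO library scored 0.56 and the WT libraries -0.06 to 0.10, and within M33 they scored 0.71 and -0.04. Of the other pathway lists in CMP, 5 of 33 other interferon-induced genes were higher in KO than in WT and none was lower. They were Trim34a at 1.35, Irgm2 at 1.46, Igtp at 1.13, Uba7 at 1.04 and Parp10 at 1.03 (log2). Of all genes, 1.02% were called higher and 0.823% lower in that comparison. Irf1 was higher by 0.66 (log2), and none of the 8 genes of receptors and kinases passed. Ikbke, a kinase of the sensing pathway, was lower, at -1.81 (log2, adjusted p = 0.00362).

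**Figure D4:**
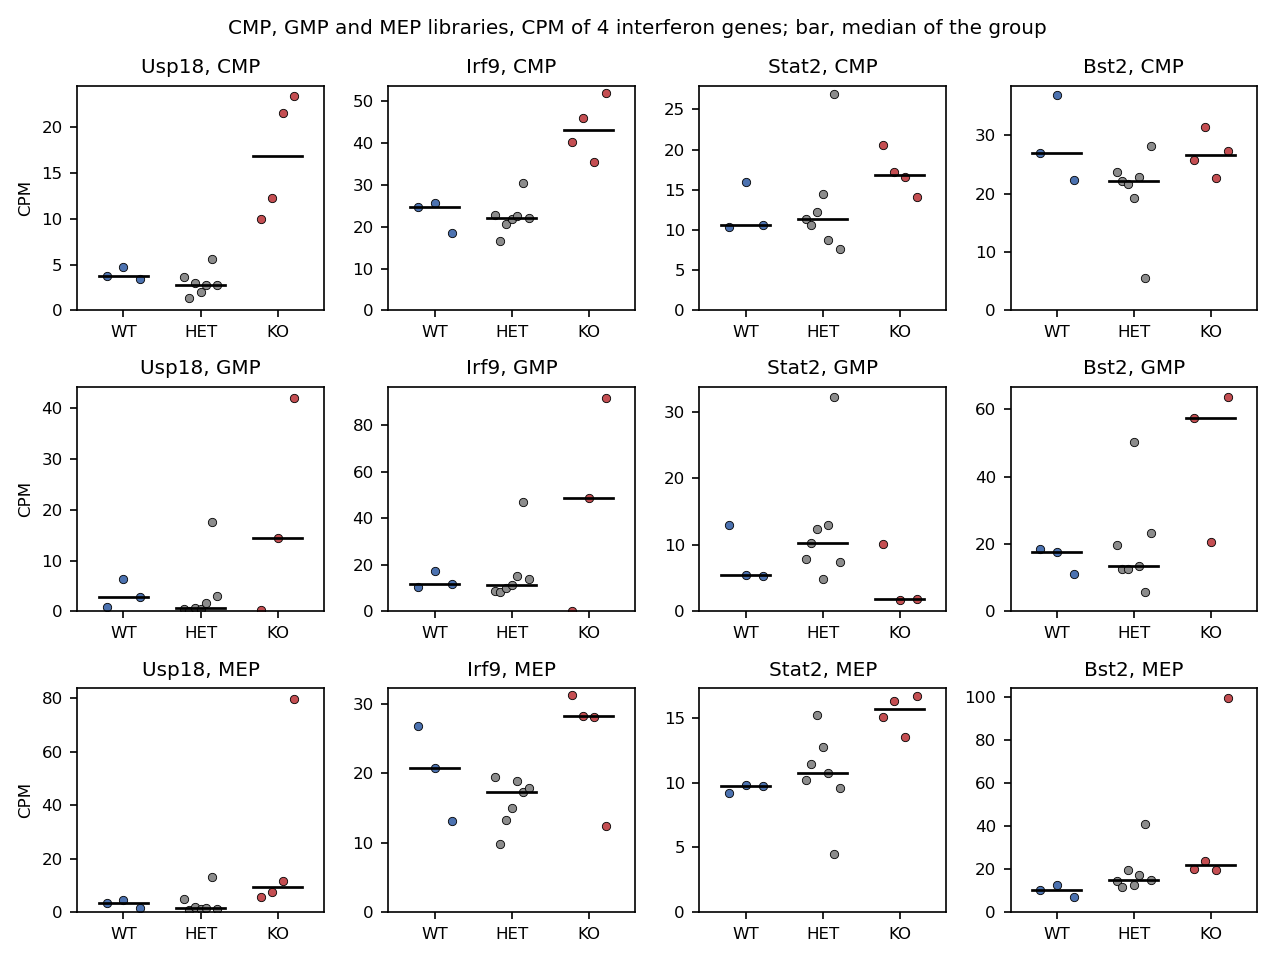
CPM (linear axis from 0) in each CMP, GMP and MEP library (points) for Usp18, Irf9, Stat2 and Bst2, by genotype, with bars at the medians. Usp18 in CMP has KO libraries at 9.999 to 23.3 CPM above all WT and HET libraries, while in GMP and MEP the KO libraries spread widely, up to 79.8 CPM in 1 MEP library.

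In GMP no interferon response gene of the 27 that passed the filter was called between KO and WT by edgeR, DESeq2 or limma. Of all 12239 genes, edgeR called 0.204%. At an unadjusted p under 0.05 there were 4, with 2 higher (Bst2 and Ifi35) and 2 lower (Eif2ak2 and Ifit1), while 6.45% of all genes were at that level. The median of the 27 genes was 0.24. For 6 of 27 every KO library was above every WT library, as for 5.83% of all genes. Usp18 showed the spread: it had 0.807, 6.38 and 2.83 CPM in WT and 0.198, 14.5 and 42.1 CPM in KO, so that 1 KO library was the lowest and another the highest of the 6. Irf9 behaved in the same way, with 10.5, 17.2 and 11.9 CPM in WT and 0, 48.4 and 91.7 CPM in KO (log2 difference 1.81, SE 1.10, adjusted p = 0.802). Irf7 had 2.42, 2.21 and 0 CPM in WT, 0.444 to 11.7 CPM in HET and 0, 5.30 and 14.1 CPM in KO (log2 difference 2.14, SE 1.66, adjusted p = 0.818). Library 6 was low for the 3 genes and libraries 13 and 15 were above WT.

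The genes with the smallest p in GMP differed in which libraries stood out. Bst2 had 18.6, 17.7 and 11.02 CPM in WT and 57.5, 20.51 and 63.7 CPM in KO, all above WT, with an adjusted p of 0.754 for 1.60 (log2, SE 0.67). Eif2ak2 had 27.5, 7.61 and 7.29 CPM in WT and 4.55, 3.54 and 0.376 CPM in KO, all below WT, with an adjusted p of 0.678 for -2.28 (log2, SE 0.89). Stat2 had 12.9, 5.40 and 5.36 CPM in WT and 10.1, 1.77 and 1.88 CPM in KO, so that the KO libraries spread to both sides of 2 WT libraries. The remaining 12 genes of the set were too low for the filter, and several targets were near 0 in KO. Ifit1 had 3, 23 and 1 reads in the WT libraries and 1, 0 and 0 in KO, and its adjusted p was 0.707. Rsad2 and Mx2, which did not pass the filter, had no read in the 3 KO libraries and 7 and 8 reads over the 3 WT libraries. Isg15 also stayed below the filter, at 0 to 0.298 CPM in WT and 0 to 0.791 CPM in KO. The other 9 that did not pass were Mx1, Oas2, Oas3, Oasl1, Zbp1, Xaf1, Ifi44, Ifi27l2a and Ifit3b. Of these, Ifit3b had 9 reads over the WT libraries and 74 over the KO libraries, Oas2 had 12 and 2, and Mx1 had 15 and 8. The GMP score was -0.20 to 0.19 in WT, -0.52 to 1.55 in HET and -0.64 to 0.27 in KO, and within series M32 the KO library scored -0.64 against 0.00 to 0.19 in WT. Against HET none of the 27 was called in KO by edgeR (0.261% of all genes), while DESeq2 called 2 lower (4.43% of all genes in either direction) and limma 4 higher (1.21%). At an unadjusted p under 0.05 in edgeR there were 7, 4 higher and 3 lower (12.3% of all genes). Between HET and WT edgeR and DESeq2 called none (edgeR 0% of all genes, 0.498% at an unadjusted p under 0.05 and none of the 27, median 0.35), but limma called 15, with 7 higher and 8 lower in HET. The same limma fit called 50.9% of all genes, so the count of 15 of 27 is near its background.

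In MEP none of the 25 genes that passed was called between KO and WT by edgeR or DESeq2, and limma called 1, Bst2 (1.36% of all genes). Of all 11686 genes, edgeR called 0.00856%. At an unadjusted p under 0.05 there were 3, Bst2, Oasl2 and Usp18, all higher, and 6.92% of all genes were at that level. The median was 0.51, and for 6 of 25 every KO library was above every WT library (4.07% of all genes). Bst2 had 10.4, 12.8 and 7.38 CPM in WT and 20.2, 24.09, 19.7 and 99.6 CPM in KO, a log2 difference of 2.0 (SE 0.62, adjusted p = 0.389). Usp18 had 3.45, 4.52 and 1.68 CPM in WT and 5.88, 7.49, 11.5 and 79.8 CPM in KO, a log2 difference of 3.01 (SE 1.09, adjusted p = 0.564). Both were above WT in all 4 KO libraries, and library 15 was by far the highest. Without it the differences were 1.09 for Bst2 and 1.39 for Usp18.

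The next genes of MEP differed in where that library lay. Oasl2 had 1.92, 2.64 and 1.01 CPM in WT and 3.31, 5.53, 3.66 and 7.80 CPM in KO, all above WT (log2 difference 1.45, SE 0.52, adjusted p = 0.542). Without library 15, its highest, Oasl2 no longer passed the filter, so its difference without that library is not known. Isg20 had 5.37, 7.16 and 4.36 CPM in WT and 4.41, 7.32, 6.47 and 64.9 CPM in KO, and without library 15 its log2 difference fell from 1.87 to 0.15. Stat2 had 9.21, 9.79 and 9.73 CPM in WT and 15.1, 16.3, 13.5 and 16.7 CPM in KO, apart in every library but with an adjusted p of 0.685 for 0.68 (log2, SE 0.34). Irf7 had 3.07, 1.88 and 2.01 CPM in WT and 3.31, 4.07, 5.63 and 1.77 CPM in KO (log2 difference 0.68, SE 0.58, adjusted p = 0.746), with 3 KO libraries above WT and library 15 below. Irf9 too was lowest in library 15, which had 12.4 CPM while the other 3 KO libraries had 31.2, 28.3 and 28.1 and the WT libraries 26.9, 20.7 and 13.1. Against HET none was called in KO by edgeR (0.0171% of all genes), 2 by DESeq2 (1.38%) and 8 by limma (2.64%), all higher, and in edgeR 11 of 25 were higher at an unadjusted p under 0.05 (7.23% of all genes in either direction), with a median of 0.59. Oasl2 was the nearest, at 2.31 (log2, SE 0.42, adjusted p = 0.0778). Between HET and WT none was called by edgeR, DESeq2 or limma, and none was at an unadjusted p under 0.05, as were 0.762% of all genes (edgeR called 0% of all genes, and the median of the 25 was -0.20). The MEP score was -0.33 to 0.20 in WT, -0.56 to 0.03 in HET and 0.35 to 0.51 in KO. With the median over the genes in place of the mean, the MEP groups overlapped, at -0.30 to 0.35 in WT and -0.27 to 0.49 in KO, where library 15 was the lowest. By the mean, the KO library of series M32 scored 0.35 and the WT libraries 0.14 to 0.20, and within M33 they scored 0.39 and -0.33. The 3 genes in the table that did not pass the filter were Ifit1, Ifit3 and Ifit3b, with 36, 81 and 22 reads over the 4 KO libraries and 9, 23 and 5 over the 3 WT libraries. Markers of red cells in MEP summed to 2235 to 17663 CPM in WT and 641 to 3156 CPM in KO, and B cell markers to 157 to 998 CPM and 48.5 to 125 CPM, and their part in these values was not tested.

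The effect of the KO was then compared between populations, as a difference of log2 fold changes, for the genes that passed the filter in the joint tables. LSK and GMP were the only pair with a called difference. The KO effect was higher in LSK than in GMP for Eif2ak2, by 2.71 (SE 0.60, adjusted p = 0.00322), for Cmpk2, by 2.26 (SE 0.60, adjusted p = 0.0173), and for Parp14, by 2.93 (SE 0.83, adjusted p = 0.0272), with 3.55% of all genes called in that direction. Cmpk2 had 22.61, 21.8 and 25.9 CPM in GMP WT and 3.56, 18.7 and 5.45 CPM in GMP KO, all below WT, whereas in LSK it rose. Parp14 rested on few reads in GMP, 17, 5 and 13 in WT and 9, 0 and 2 in KO. The number of genes called in this pair was 1 without GMP WT library 2 and 8, of which 1 was lower in LSK, without GMP KO library 13. LSK libraries had other title series than those of GMP, so that population and title series cannot be told apart here. The GMP KO libraries also had 2.52% to 3.06% of their reads on spike-in RNA, against 0.149% to 0.233% in GMP WT. The part of this in the 3 differences was not tested. Of 25 genes, edgeR and DESeq2 called none between LSK and CMP (edgeR 0.0084% of all genes), LSK and MEP (0.513%), CMP and GMP (0.0169%), CMP and MEP (0%) or GMP and MEP (0.414%). At an unadjusted p under 0.05 in edgeR there were 0, 4, 4, 2 and 1 in that order, beside 0.966%, 13.4%, 6.04%, 2.35% and 7.83% of all genes. Without GMP KO library 13 there were 3 between CMP and GMP and 2 between GMP and MEP. The call of 34 genes in LSK and 7 in CMP is thus not a tested difference between the 2 populations, and LSK also had more libraries and reads.

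**Figure D5:**
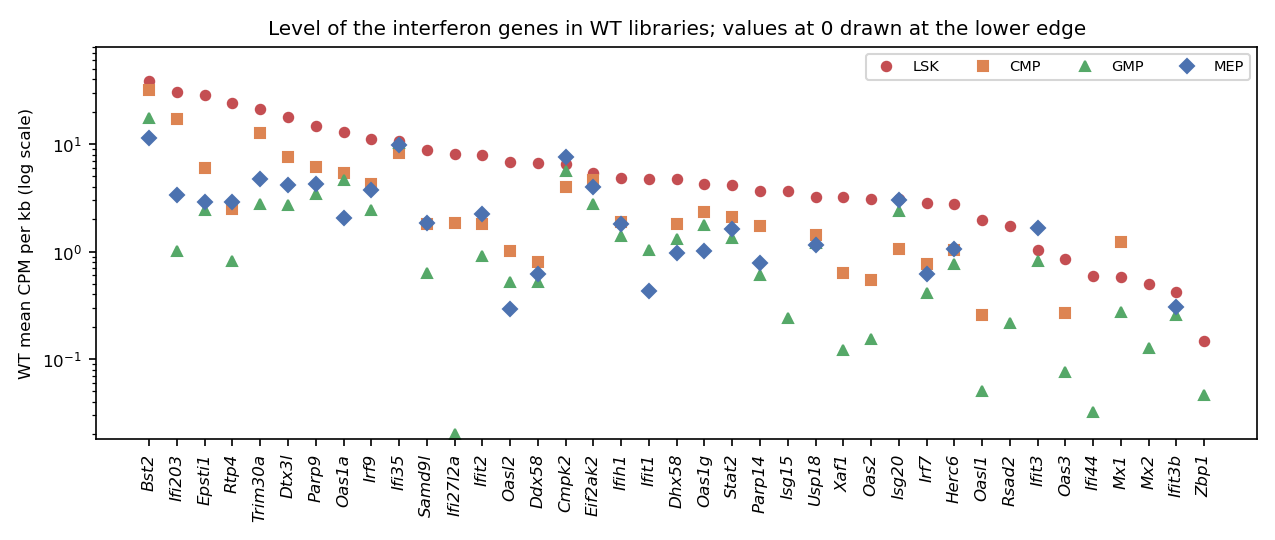
Mean level in WT libraries as CPM per kilobase (log axis; a level of 0 at the lower edge) of each interferon response gene in LSK, CMP, GMP and MEP, in the order of the LSK levels. The median level is 4.73 in LSK and 0.823 in GMP, and Bst2 is at the top in each population, from 11.3 in MEP to 38.7 in LSK.

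Levels per length of gene, as CPM per kilobase of annotated exons in WT libraries, set the genes in order. In LSK the median of the 39 genes was 4.73, from 0.148 for Zbp1 to 38.7 for Bst2, followed by Ifi203 at 30.3, Epsti1 at 28.5, Rtp4 at 24.21 and Trim30a at 21.04. In CMP the median was 1.85 and Bst2 was at 31.8, Ifi203 at 17.1 and Trim30a at 12.6. In GMP the median was 0.823, with Bst2 at 17.4 and Ifi35 at 10.2, and in MEP it was 1.94, with Bst2 at 11.3, Ifi35 at 9.72 and Cmpk2 at 7.52. Levels of LSK stand beside the others without a test, as LSK had other title series and the tables list different genes.

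Between the WT libraries of the 3 committed populations, Ifi203 was the gene that differed. It had 120, 108 and 115 CPM in CMP, 8.88, 6.63 and 4.76 CPM in GMP and 20.33, 38.4 and 8.39 CPM in MEP, so that CMP was above both others in every library. The log2 difference of Ifi203 between GMP and CMP was -3.84 (SE 0.55, adjusted p = 5.7e-05), and it was the only gene of the set among the 0.355% of genes called lower. In MEP it differed from CMP by -2.27 (SE 0.50, adjusted p = 0.00322), again alone, with 2.23% of genes called lower, and this call was lost without MEP WT library 12. Without GMP WT library 2, 3 genes were called lower in GMP than in CMP. GMP and MEP differed by -1.57 (adjusted p = 0.0632), and none of the set was called between them by edgeR, beside 6.95% of all genes, with 2 at an unadjusted p under 0.05 (18.4% of all genes). DESeq2 called 1 there (9.93% of all genes), and edgeR called 1 without GMP WT library 2 or without MEP WT library 12. Trim30a had 44.7, 55.3 and 54.98 CPM in CMP and 23.4, 6.87 and 3.72 CPM in GMP, with no overlap but an adjusted p of 0.327 (-1.99 on the log2 scale). Bst2 was at 26.9, 36.9 and 22.3 CPM in CMP against 10.4, 12.8 and 7.38 CPM in MEP (-1.41, adjusted p = 0.322). Oas1a was at 6.46, 8.83 and 11.02 CPM in GMP and 4.22, 2.64 and 4.70 CPM in MEP (1.41, adjusted p = 0.262).

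The 7 HET libraries of each committed population gave more calls. Ifi203 was again lower in GMP than in CMP, with a log2 difference of -3.28 (adjusted p = 4.68e-08), the only call of the set where 5.6% of all genes were called. Between MEP and CMP 4 genes were called, beside 10.2% of all genes. In MEP the log2 difference was -2.51 for Ifi203 (adjusted p = 3.04e-07), -1.75 for Trim30a (adjusted p = 0.0199) and -1.53 for Epsti1 (adjusted p = 0.0375), while Isg20 was higher by 1.75 (adjusted p = 0.0298). Between GMP and MEP Oas1g was called, at 2.15 (adjusted p = 0.00782), beside 17.7% of all genes. Without the HET libraries numbered 8 there were 3, 2 and 2 calls in these comparisons in place of 1, 4 and 1. The order of Ifi203 was thus CMP above both GMP and MEP in WT and in HET libraries, and GMP and MEP as neighbours did not differ by the test in WT. In CMP KO libraries Ifi203 was at 142, 170, 189 and 103 CPM, so that 3 of 4 were above WT and 1 below.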

How the data were processed

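RNA sequencing of 64 libraries from LSK, CMP, GMP and MEP cells was analysed from 4 tables of raw counts per gene, deposited by the authors. The counts came from featureCounts on GRCm38 (mm10), per the submitters' processing notes. No aligner or annotation release was given in the sources used here. Spike-in rows were left out of library sizes.

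Each population was fitted with all 3 genotypes in R 4.3.3 with edgeR 4.0.16 (TMM, filterByExpr with at least 10 counts per library and 15 in all, robust quasi-likelihood fit, adjusted p under 0.05 over all genes). Populations were compared in 1 model over the genes of all tables used. Alternatives were DESeq2 1.42.0, limma 3.58.1 (voom with a quality weight per library), a filter of 30 counts or none, and other scalings. A series term and leaving out each library were further alternatives. Scores used a prior count of 2. Each SE was derived as the absolute log2 fold change divided by the square root of the F statistic of edgeR's test. Figures were drawn with matplotlib 3.10.9. The scripts were tested on simulated data.

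Library values are given for Stat2, Irf7, Irf9, Isg15 and Usp18 and the genes with the smallest p (8 in LSK, 5 in CMP, 3 in GMP, 4 in MEP and 4 between WT populations), and up to 4 genes per pathway list. Further genes were added after their values were seen, to account for every role. The genes and lists were chosen with earlier results of these data known. One pathway gene outside the set is not reported here.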

Additional observations from a re-analysis of the deposited data

Results flagged for a closer look

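In 24 of 91 groups of 4 to 10 libraries that were checked, 1 library lay apart from the others by more than the 95% limit of Dixon's test, and chance marks about 1 in 20 groups. Most of them were the HET libraries numbered 8 and the MEP KO library 15. In GMP, HET library 8 had the score 1.55, where the other 6 ran from -0.52 to 0.08. It was also the highest HET library for Stat2 (32.2 CPM), Irf7 (11.7 CPM), Irf9 (46.8 CPM), Isg15 (5.85 CPM), Usp18 (17.5 CPM) and Ifi203 (26.3 CPM). Its TMM factor of 0.304 raises these values. Before scaling, 0.0247% of its reads on genes lay on the set, against a median of 0.0259% in the GMP HET libraries. HET library 7 of GMP was apart for Bst2, at 50.3 CPM. In MEP, HET library 8 was the highest for Bst2 (41.1 CPM), Usp18 (13.4 CPM) and Isg20 (18.4 CPM). KO library 15 of MEP was the highest KO library for Bst2 (99.6 CPM), Usp18 (79.8 CPM), Isg20 (64.9 CPM) and Oas1a (14.5 CPM) and the lowest for Irf9 (12.4 CPM). In CMP, HET library 8 was high for Stat2 (27.0 CPM) and low for Cmpk2 (10.1 CPM) and Bst2 (5.61 CPM), and KO library 15 was high for Irf7 (12.3 CPM).

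In LSK, HET library HT21.4 was the highest for Usp18 (36.1 CPM), Mx1 (10.2 CPM) and Isg15 (8.48 CPM), and library WT19.2 for Mx1 (6.15 CPM, where the other WT libraries ran from 1.14 to 1.39).

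The effect of the KO differed between LSK and GMP by the test of that difference for Eif2ak2 (2.71 on the log2 scale), Cmpk2 (2.26) and Parp14 (2.93). The 3 GMP KO libraries held 2 to 23 reads of Eif2ak2, 18 to 53 of Cmpk2 and 0 to 9 of Parp14. They also had the higher spike-in share given above, and population and title series cannot be told apart.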

How the results depend on the processing

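For 24 counts of interferon response genes called, 141 alternatives other than leaving a library out were run. Of these 120 stayed within 1.5 times the reported count and 21 did not. Of 354 fits without 1 library, 26 went beyond 1.5 times. The cause of these shifts was not tested.

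LSK KO against WT (34 genes) gave 23 to 37 under the alternatives and 27 to 35 without 1 library. The 23 came with the spike-in share as a term, and the other alternatives gave 29 (no count filter) to 37 (limma). In LSK the spike-in share was 0.339% to 0.704% in WT (median 0.534%) and 0.381% to 1.20% in KO (median 0.770%). Of the 34 genes, 22 were called under all 31 alternatives. CMP KO against WT (7) gave 12 with limma, 1 with the title series as a term and 3 with the spike-in share as a term, the last chosen after seeing the data, and 1 to 8 without 1 library. It gave 1 without WT 12, 3 without WT 2, WT 5, KO 11 or KO 15, and 4 without KO 13. None of the 7 genes was called under all 21 alternatives. CMP KO against HET (13) gave 21, 6 and 8 under the same 3 settings, and 9 to 17 without 1 library. GMP KO against WT stayed at 0 with the spike-in share as a term, while the calls over all genes went from 25 to 1696.

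With limma, GMP HET against WT gave 15, GMP KO against HET 4, MEP KO against WT 1 and MEP KO against HET 8, where edgeR called none, beside 6233, 148, 159 and 309 of all genes. DESeq2 gave 2 in GMP KO against HET, 2 in MEP KO against HET, 1 between WT GMP and MEP, 2 between HET GMP and CMP, 3 between HET GMP and MEP, and 5 for the KO effect of LSK against GMP. Leaving out the HET libraries numbered 8, also chosen after seeing the data, gave 1, 3, 2 and 6 in the last 4 of these, and 2 in HET MEP against CMP.

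Without 1 library the counts ran from 1 to 3 in WT GMP against CMP, 0 to 1 in WT MEP against CMP, 0 to 1 in WT GMP against MEP, 1 to 2 in HET GMP against CMP, 2 to 5 in HET MEP against CMP and 1 to 3 in HET GMP against MEP. The lower end of HET MEP against CMP was reached without CMP HET 1 or MEP HET 8, and the upper end of HET GMP against MEP without GMP HET 8. KO effects gave 0 to 3 for CMP against GMP, 0 to 2 for GMP against MEP and 1 to 8 for LSK against GMP, the upper ends all without GMP KO 13.

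Replicate numbers are shared between CMP, GMP and MEP, and 26 of 40 pairs of the same number correlated above 0.1 (61 of 174 pairs of other numbers; medians 0.18 and -0.01). As a hint from the data, 23 of 41 libraries correlated best with their own number, but since not every pair passed and no label says what a number marks, the numbers were not taken as pairing. With a replicate block HET MEP against CMP gave 5 genes in place of 4, WT GMP against CMP 1, WT MEP against CMP 1, and no other count moved. With the median over genes in place of the mean, the MEP scores of KO (-0.27 to 0.49) and WT (-0.30 to 0.35) overlapped. Depth was lowest in GMP, from 1006090 reads, where 12 of the 39 genes did not pass the filter.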
